A study of Mus musculus with 15 samples.

Results

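The genes described here are 36 mouse genes known to respond to type I interferon. They were listed by name rather than selected by a cutoff on their values, but with earlier results of these data known. Of the 36, 34 had a probe set that lists 1 gene symbol, 33 of these passed a filter on low signal, and 11902 of 18193 genes passed it in all. The only probe set of Isg15 also lists a second gene, Gm9706, so that gene was not used. No probe set is named for Ifi44 in the annotation used here, and Mx2, with 1 array above the lower limit of measurement, did not pass the filter. Genes were measured on 15 one-colour oligonucleotide arrays, 1 per sample. The 3 resting and 3 in vitro activated T cell samples came from p53 KO mice on a C57Bl/6 background at 5 weeks of age, and were purified by sorting from liver or spleen. The 9 lymphomas, mPTCL 1 to 9, are murine peripheral T cell lymphomas that arose in C57BL/6 CD3KO recipients of p53KO T cells and were sorted from the liver. The loss of p53 is therefore shared by every group, including the controls. The labels do not state which organ each normal sample came from, what activated the cells and for how long, the age of the lymphoma-bearing mice, or whether samples of a normal group came from separate animals, so p-values measure the spread between these samples, which may be technical. They describe injections of PBS or heat-killed Streptococcus pneumoniae every 2 weeks for the normal samples, without saying which animal had which. Recipients that lack CD3 have no T cells of their own but retain other blood cells.

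Type I interferons bind the receptor made of Ifnar1 and Ifnar2, which signals through the kinases Jak1 and Tyk2. Stat2 and Irf9 then act in a complex that binds the interferon-stimulated response element in promoters and turns on antiviral genes. Among these are inhibitors of viral translation and replication, such as the Ifit and Oas proteins and Mx1, sensors of foreign RNA, and regulators that prolong or end the signal. Irf7 amplifies interferon production, and Usp18 is both the protease that removes the ubiquitin-like protein Isg15 from its targets and a brake on the receptor. In T cells, a low tonic interferon signal keeps many of these genes on at rest.

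The binding element can be read in the promoters of these genes. The pattern GAAANNGAAA, or TTTCNNTTTC on the opposite strand, was searched on both strands in the 250 bases before each start site in RefSeq, build GRCm38.p6. It was present in 9 of the 27 listed genes found in the promoter table (33.3%) and in 936 of 27025 genes of all (3.46%). Matches may overlap each other, and a match is a description of letters, not of a bound site. The 5 promoters shown belong to genes that the results below turn on and that hold a match. They are Ifit1 at chr19:34640639-34640888 on the plus strand, Stat2 at chr10:128270248-128270497 on the plus strand, Ifit3 at chr19:34583279-34583528 on the plus strand, Trim30a at chr7:104465194-104465443 on the minus strand and Oas1a at chr5:120907526-120907775 on the minus strand. Each is written 5′ to 3′ on the strand of its gene and ends at the base before the start site, with matches in capitals.
Ifit1: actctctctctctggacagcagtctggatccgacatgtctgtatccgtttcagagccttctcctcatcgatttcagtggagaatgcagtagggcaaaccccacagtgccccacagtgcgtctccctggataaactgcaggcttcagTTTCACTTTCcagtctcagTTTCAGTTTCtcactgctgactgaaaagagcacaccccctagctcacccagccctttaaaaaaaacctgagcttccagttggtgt
Stat2: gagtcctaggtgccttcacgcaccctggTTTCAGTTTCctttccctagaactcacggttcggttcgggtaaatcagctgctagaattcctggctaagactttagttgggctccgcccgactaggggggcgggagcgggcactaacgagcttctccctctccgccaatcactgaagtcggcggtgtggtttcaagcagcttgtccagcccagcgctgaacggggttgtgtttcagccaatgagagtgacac
Ifit3: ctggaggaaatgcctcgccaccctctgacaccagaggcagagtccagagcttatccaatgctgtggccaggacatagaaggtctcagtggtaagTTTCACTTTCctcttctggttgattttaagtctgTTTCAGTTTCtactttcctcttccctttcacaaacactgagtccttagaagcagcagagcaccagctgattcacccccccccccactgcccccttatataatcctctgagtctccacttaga
Trim30a: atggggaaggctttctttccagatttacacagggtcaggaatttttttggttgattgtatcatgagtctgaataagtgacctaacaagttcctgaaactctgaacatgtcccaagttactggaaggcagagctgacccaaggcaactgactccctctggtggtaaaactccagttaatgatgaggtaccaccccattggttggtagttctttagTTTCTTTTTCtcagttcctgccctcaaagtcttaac
Oas1a: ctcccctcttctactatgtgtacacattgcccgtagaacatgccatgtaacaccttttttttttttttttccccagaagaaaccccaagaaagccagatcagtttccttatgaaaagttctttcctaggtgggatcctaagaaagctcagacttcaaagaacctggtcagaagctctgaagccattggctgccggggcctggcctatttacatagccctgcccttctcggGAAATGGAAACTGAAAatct
Ifit1 and Ifit3, which are neighbours on chromosome 19 and encode translation-blocking proteins, each held 2 separate matches. Those of Ifit1 began 104 and 85 bases before the start, and those of Ifit3 156 and 122 bases before it. Oas1a, which encodes an oligoadenylate synthetase that switches on the degradation of viral RNA, held 2 overlapping matches within 20 bases of its start. The single match of Trim30a began 36 bases before the start and that of Stat2 222 bases before it. Of the genes with a promoter in the table, the pattern was held by 3 of 9 called lower on activation and 5 of 15 that did not pass that test. It was held by 3 of 6 called lower in the lymphomas against resting cells and 5 of 18 that did not pass, and by 2 of 7 and 6 of 18 against activated cells.

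Signals were linear values scaled by the authors to the same trimmed mean of 500 in every array, and values below 32 were set to 32, which is 5 on the log2 scale used below. All levels are log2 signals of the 1 probe set with the highest mean for that gene, so levels of different genes are not set against each other. A gene was called higher or lower when the limma test, adjusted over all 11902 genes tested by the Benjamini-Hochberg method, gave an adjusted p under 0.05 and the change was at least 2-fold. Changes are differences between group means on the log2 scale, given ± SE, and their n is 3 resting, 3 activated or 9 lymphoma arrays. Resting arrays correlated with each other at 0.968 to 0.976 and activated arrays at 0.970 to 0.974, whereas the lymphomas correlated at 0.761 to 0.924. T cell markers averaged 12.88 to 13.10 in resting cells, 12.44 to 12.53 in activated cells and 8.78 to 12.22 in the lymphomas, and Cd3e, the signalling chain of the T cell receptor, was 5.68 in mPTCL 3, 5.00 in mPTCL 4 and 9.03 in mPTCL 5. In such bulk samples, fewer cells of a type and less RNA per cell cannot be told apart.

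Over the 34 measured genes, the mean level was 10.01 to 10.24 in the resting arrays, 9.67 to 9.70 in the activated arrays and 8.38 to 10.21 in the lymphomas. The activated arrays thus lay below the resting ones, and the lymphomas ran from well below both to as high as resting cells. Of the 33 genes tested, 23 were called in at least 1 of the 3 comparisons and 10 in none. The resting samples take part in 2 comparisons, the lymphomas in 2 and the activated samples in 2, so the comparisons are not independent of each other.

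**Figure D1:**
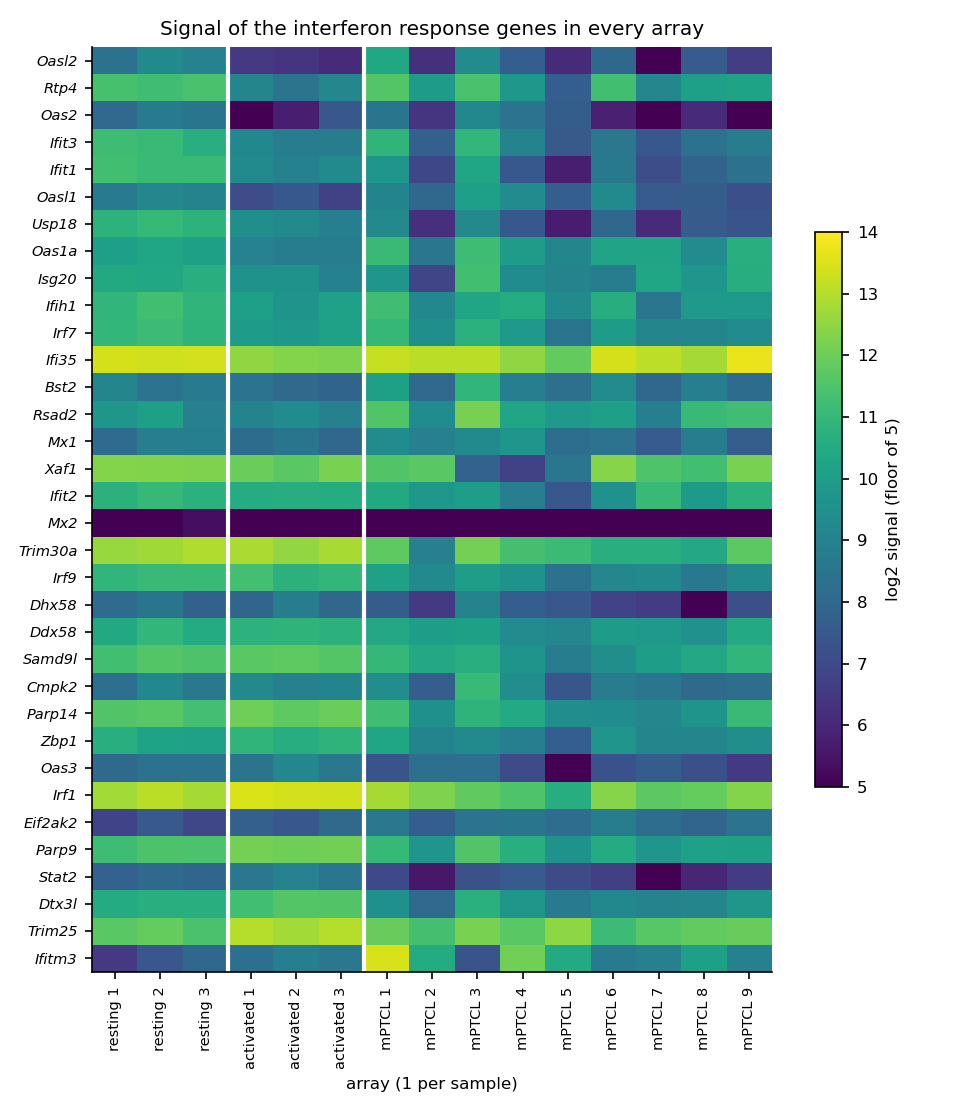
Log2 signal of the 34 measured interferon response genes (one line each, ordered by their change on activation) in every array (columns: 3 resting, 3 activated and 9 lymphoma samples), with the colour scale from the floor of 5 to 14. The resting and activated columns are even within their group, while mPTCL 1 and mPTCL 3 are bright and mPTCL 5 is dark over most genes.

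In activated compared with resting T cells, 13 of the 33 genes were called, 12 lower and 1 higher, where 12.7% of all genes tested were called. Lower calls made up 36.4% of the interferon response genes and 4.23% of all genes, and higher calls made up 8.45% of all genes. Of the 12 genes that fell, 9 are antiviral effectors, a role that 20 of the 33 genes tested have, and no effector was called higher. Each gene was placed under 1 role when it was listed, and a difference between roles was not tested. The effector closest to a higher call was Ifitm3, a membrane protein that blocks virus entry. It measured 6.51, 7.44 and 8.01 at rest and 8.29, 8.87 and 8.58 after activation, with all activated arrays above, and differed by 1.26 ± 0.40 (SE; adjusted p = 0.0555) in the limma test. Under the alternatives it was called higher in 7, with adjusted p of 0.0127 to 0.0485. The median change over the 33 genes was -0.27, against 0.02 over all genes. All 3 activated arrays lay below all 3 resting ones for 15 genes and above them for 8, and 23.3% of all genes did so in each direction. With each array centred on its median, 12 genes were lower and none higher, and 677 of all genes were called higher and 1149 lower, against 1006 and 504 with the scaling as deposited.

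Among the oligoadenylate synthetase family, 4 members fell. Oasl2, a synthetase-like protein, measured 8.40, 9.31 and 9.01 in the resting arrays and 6.50, 6.36 and 6.06 in the activated ones. Oas2 measured 8.08, 8.71 and 8.51 in resting and 5.00, 5.77 and 7.43 in activated cells, the lowest of which is at the floor. The groups did not overlap for either gene, and the activated values of Oas2 were far apart. Oasl2 changed by -2.60 ± 0.29 (SE; adjusted p = 0.0015), or 6.06-fold lower, in the limma test. Oas2 changed by -2.37 ± 0.60 (SE; adjusted p = 0.0272). Oasl1, known to restrain Irf7 translation, measured 8.70, 9.18 and 9.01 at rest and 7.12, 7.48 and 6.75 after activation, a change of -1.85 ± 0.26 (SE; adjusted p = 0.00318) by limma. Oas1a measured 10.09, 10.33 and 10.13 at rest and 8.99, 8.82 and 8.76 after activation, a change of -1.33 ± 0.13 (SE; adjusted p = 0.000911) by limma. Resting values lay above activated values in every array for both. Oas3, the remaining synthetase measured, did not pass the test at 0.47 ± 0.24. The call of Oas2 was lost without any 1 of 5 of the 6 arrays (all but activated 3), at adjusted p of 0.0545 to 0.0907 by limma.

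The Ifit genes, whose promoters are shown above, split. Ifit1 measured 11.27, 11.09 and 11.11 in resting and 9.26, 8.96 and 9.32 in activated cells, and changed by -1.98 ± 0.13 (SE; adjusted p = 0.000245), 3.94-fold lower by limma. Ifit3 measured 11.21, 11.05 and 10.68 and 9.18, 8.83 and 8.77 in the same groups and changed by -2.06 ± 0.18 (SE; adjusted p = 0.00069). No activated array reached a resting one for these genes. Ifit2, of the same cluster, measured 10.78, 11.02 and 10.74 at rest and 10.58, 10.60 and 10.56 after activation, a difference of -0.27 that did not pass (adjusted p = 0.0866). Rtp4, a receptor transporter protein with antiviral activity, measured 11.38, 11.23 and 11.43 at rest and 9.11, 8.45 and 9.17 after activation, and changed by -2.44 ± 0.20 (SE; adjusted p = 0.000552), or 5.42-fold lower. Isg20, an exonuclease of viral RNA, measured 10.46, 10.37 and 10.67 at rest and 9.63, 9.60 and 8.96 after activation, and changed by -1.10 ± 0.20 (SE; adjusted p = 0.00849). Ifi35, an interferon-induced leucine zipper protein, measured 13.42, 13.35 and 13.40 at rest and 12.49, 12.35 and 12.25 after activation, and changed by -1.02 ± 0.09 (SE; adjusted p = 0.000591). Each of these 3 genes was lower in all activated arrays. Without activated 3 the changes of Isg20 and Ifi35 were -0.89 and -0.97, under 2-fold.

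Of the remaining called genes, Usp18, a sensor and a factor fell and Trim25 rose. Usp18 measured 10.83, 11.03 and 10.83 at rest and 9.47, 9.32 and 8.89 after activation, and changed by -1.67 ± 0.17 (SE; adjusted p = 0.00108) in the limma test. Ifih1, which encodes the RNA sensor MDA5, measured 10.92, 11.29 and 10.89 at rest and 10.07, 9.66 and 10.16 after activation, a change of -1.07 ± 0.17 (SE; adjusted p = 0.00515). Irf7 measured 10.97, 11.18 and 10.84 at rest and 9.98, 9.79 and 10.14 after activation, a change of -1.03 ± 0.14 (SE; adjusted p = 0.00257). The groups were apart for all 3 genes. Without resting 2, or without activated 2, the changes of Ifih1 and Irf7 were between -0.95 and -0.92, under 2-fold. The 1 gene called higher was Trim25, the ubiquitin ligase that activates RIG-I and also transfers Isg15. It measured 11.70, 11.89 and 11.43 at rest and 12.99, 12.76 and 13.00 after activation, and changed by 1.25 ± 0.14 (SE; adjusted p = 0.00139), 2.37-fold higher by limma.

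A further 5 genes passed the adjusted p with a change under 2-fold, and all 5 were higher in activated cells. They were Dtx3l at 0.84 ± 0.11, Stat2 at 0.76 ± 0.20, Parp9 at 0.71 ± 0.10, Irf1 at 0.54 ± 0.11 and Parp14 at 0.41 ± 0.12, with limma adjusted p from 0.00244 to 0.0424. With each array centred on its median, the median change over all genes moved from 0.02 to -0.25. The size of these small rises therefore depends on the scaling. For Stat2 and Dtx3l the size rested on the probe set used, since a second one rose by 1.78 and 1.32. With the mean of probe sets both were called higher by limma, Stat2 at 1.27 (adjusted p = 0.0219) and Dtx3l at 1.08 (adjusted p = 0.00308). That setting called 4 of the 33 genes higher and 12 lower, where 11.7% of all genes were called. Dtx3l and Parp9 form a ubiquitin ligase complex that enhances STAT signalling, and Parp14 is a mono-ADP-ribosyltransferase of the same chromosome region. Irf9, the DNA-binding part of the Stat2 complex, differed by -0.00 ± 0.15 between the groups.

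Markers of some other cells moved beside these genes. Of 13 tested macrophage and Kupffer cell markers, 7 fell on activation, and their summed signal over 15 measured genes was 2893 to 5792 in resting and 832 to 1028 in activated cells, with Cd14, C1qa, C1qc, Clec4f and Timd4 at the floor in all activated arrays. Of 7 tested plasmacytoid dendritic cell markers, 2 fell, and their summed signal over 8 genes was 4992 to 7554 in resting and 1278 to 1550.4 in activated cells. Among 12 B cell markers tested 1 fell, and their summed signal was 17607 to 18836 in resting and 8847 to 23212.5 in activated cells. NK cell markers had 1 of 5 lower, with sums of 10524 to 12795 and 16512 to 23601. Neutrophil markers had 1 of 9 lower, with sums over 10 genes of 579.9 to 712.4 and 623.75 to 807. Of 8 tested endothelial and stromal markers, 4 rose on activation and 4 fell in the lymphomas against activated cells. Their summed signal over 10 genes was 2485 to 3153 at rest, 3974 to 4487 after activation and 524 to 2859 in the lymphomas, with Dcn and Sparc at the floor in all resting arrays. The 3′ to 5′ ratio of the actin control probe sets was 1.35 ± 0.13 in resting and 1.52 ± 0.03 in activated arrays (SD, n = 3 each), and that of Gapdh was 2.02 ± 0.18 and 1.31 ± 0.05. The part of these differences in the lower interferon response genes was not tested. When all 15 arrays shared 1 fit, 1 of the 33 genes (Trim25) was called on activation and 3.34% of all genes were.

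**Figure D2:**
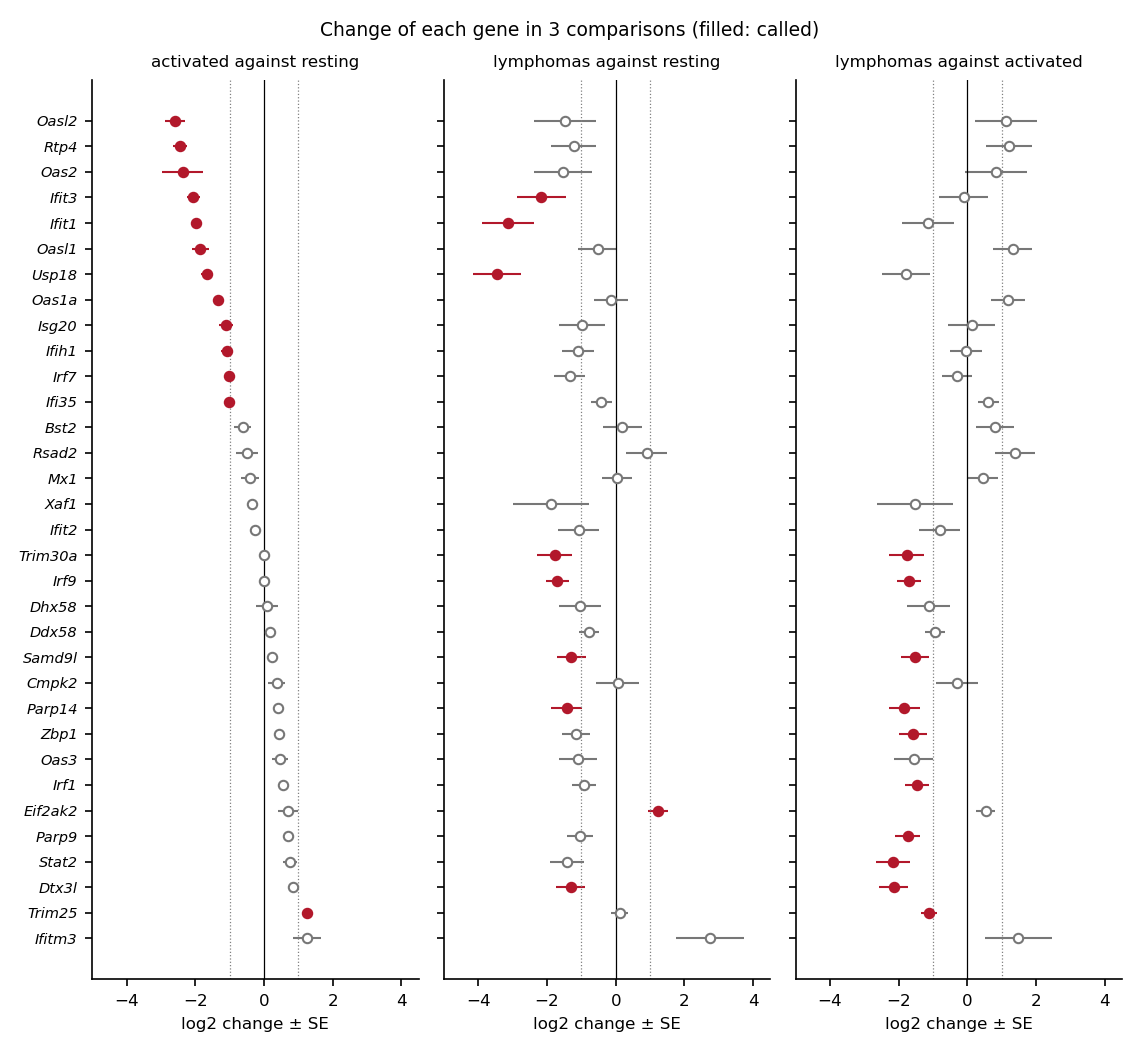
Log2 change ± SE (horizontal axis) of the 33 tested genes (one line each, in the order of their change on activation) in the 3 comparisons, with filled red points for called genes and dotted lines at 2-fold. The upper lines carry the 12 genes lower on activation, and the lower lines carry most of the 10 genes lower in the lymphomas than in activated cells.

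In the lymphomas compared with resting T cells, 9 of the 33 genes were called, 8 lower and 1 higher, where 13.9% of all genes were called. Lower calls made up 24.2% of the interferon response genes and 6.84% of all genes, and higher calls 7.03% of all genes. The genes that fell were Usp18, Ifit1, Ifit3, Irf9, Trim30a, Parp14, Dtx3l and Samd9l. The median change was -1.10, against -0.02 over all genes, and 20 of the 33 changes were at -1 or lower, as were 12.5% of all genes. All 9 lymphomas lay below all resting arrays for 7 genes and above them for 1 gene, as did 11.0% and 8.36% of all genes. The count was 4 without a filter on low signal (7.51% of all genes called) and 5 with each array centred on its median (11.7%). It was 2 without resting 1 (6.95% of all genes) or resting 3 (6.77%) and 3 without resting 2 (6.54%). These counts without a resting array are near the share of all genes. Without mPTCL 6, 7 or 8 the count was 5 (12.6%, 13.7% and 12.6% of all genes), and without mPTCL 3 it was 12 (15.5%).

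Usp18 had the largest decrease. It measured 10.83, 11.03 and 10.83 in the resting arrays and 5.72 to 9.25 with a median of 7.47 in the lymphomas. Every lymphoma lay below every resting array, and mPTCL 5, at 5.72, was the lowest. The change was -3.45 ± 0.70 (SE; adjusted p = 0.00514), 10.9-fold lower by limma. Irf9 measured 10.91, 11.05 and 11.09 at rest and 8.40 to 10.16 with a median of 9.27 in the lymphomas, again without overlap, and changed by -1.70 ± 0.34 (SE; adjusted p = 0.00502), 3.24-fold. The calls of Usp18 and Irf9 held in all alternative settings in which they were tested (28 for Usp18 and 27 for Irf9), including those that left out 1 array.

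Ifit1 and Ifit3 fell as well, with a wider spread. Ifit1 ranged from 5.75 to 10.28 with a median of 7.87 over the lymphomas, all below the 3 resting arrays, and changed by -3.13 ± 0.76 (SE; adjusted p = 0.0137) by limma. Ifit3 ranged from 7.47 to 10.94 with a median of 8.57, and mPTCL 1 and mPTCL 3 lay within the resting range. Its change was -2.16 ± 0.70 (SE; adjusted p = 0.049), close to the threshold. Without any 1 resting array the adjusted p of Ifit1 was 0.0607 to 0.0662, past the threshold. Ifit3 lost its call in 10 of the 12 such fits (all except those without mPTCL 1 or mPTCL 3), with adjusted p of 0.0558 to 0.165 by limma.

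Trim30a, a tripartite motif protein known to restrain innate signalling, measured 12.61, 12.71 and 12.93 at rest and 8.92 to 12.11 with a median of 11.15 in the lymphomas, with all lymphomas below. Samd9l, a translation inhibitor with antiviral and growth-limiting activity, measured 11.26, 11.58 and 11.49 at rest and 8.77 to 11.00 with a median of 10.44 in the lymphomas, with all lymphomas below. Trim30a changed by -1.78 ± 0.52 (SE; adjusted p = 0.0317) and Samd9l by -1.29 ± 0.41 (SE; adjusted p = 0.0458) in the limma test. Parp14 measured 11.56, 11.67 and 11.30 at rest and 9.17 to 11.24 with a median of 9.65 in the lymphomas, and changed by -1.42 ± 0.45 (SE; adjusted p = 0.0452). Dtx3l measured 10.55, 10.66 and 10.68 at rest and 8.06 to 10.72 with a median of 9.20 in the lymphomas, and changed by -1.31 ± 0.42 (SE; adjusted p = 0.047). For Dtx3l, mPTCL 3, at 10.72, was above all resting arrays, and the other lymphomas were below. For Parp14 the highest lymphoma, mPTCL 1 at 11.24, lay below the lowest resting value. The call of Trim30a was lost without any 1 resting array (adjusted p = 0.0970 to 0.125), and those of Samd9l, Parp14 and Dtx3l without any 1 resting array or any of 5 single lymphomas, at adjusted p of 0.0558 to 0.163 by limma. Those lymphomas were mPTCL 6, 7 and 8 for all 3 genes, mPTCL 2 for Samd9l and Parp14, mPTCL 5 for Parp14 and Dtx3l, mPTCL 4 for Samd9l and mPTCL 1 for Dtx3l.

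Eif2ak2, which encodes PKR, the RNA-activated kinase that halts translation, was the 1 gene called higher in the lymphomas. It measured 6.83, 7.50 and 6.91 at rest, 7.75, 7.45 and 8.12 after activation and 7.68 to 8.80 with a median of 8.42 in the lymphomas. All lymphomas lay above the resting arrays, and the activated values overlapped them. The change against rest was 1.23 ± 0.29 (SE; adjusted p = 0.0113), 2.35-fold higher by limma. Without resting 1 or resting 3 its adjusted p was 0.0682 to 0.0718 by limma. A second probe set of the gene differed by 1.16 and the remaining one by 0.22 between the same groups. With the mean of its probe sets the change was 0.87 (adjusted p = 0.0477 by limma). That is under 2-fold, so the call rested on the probe set used.

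**Figure D3:**
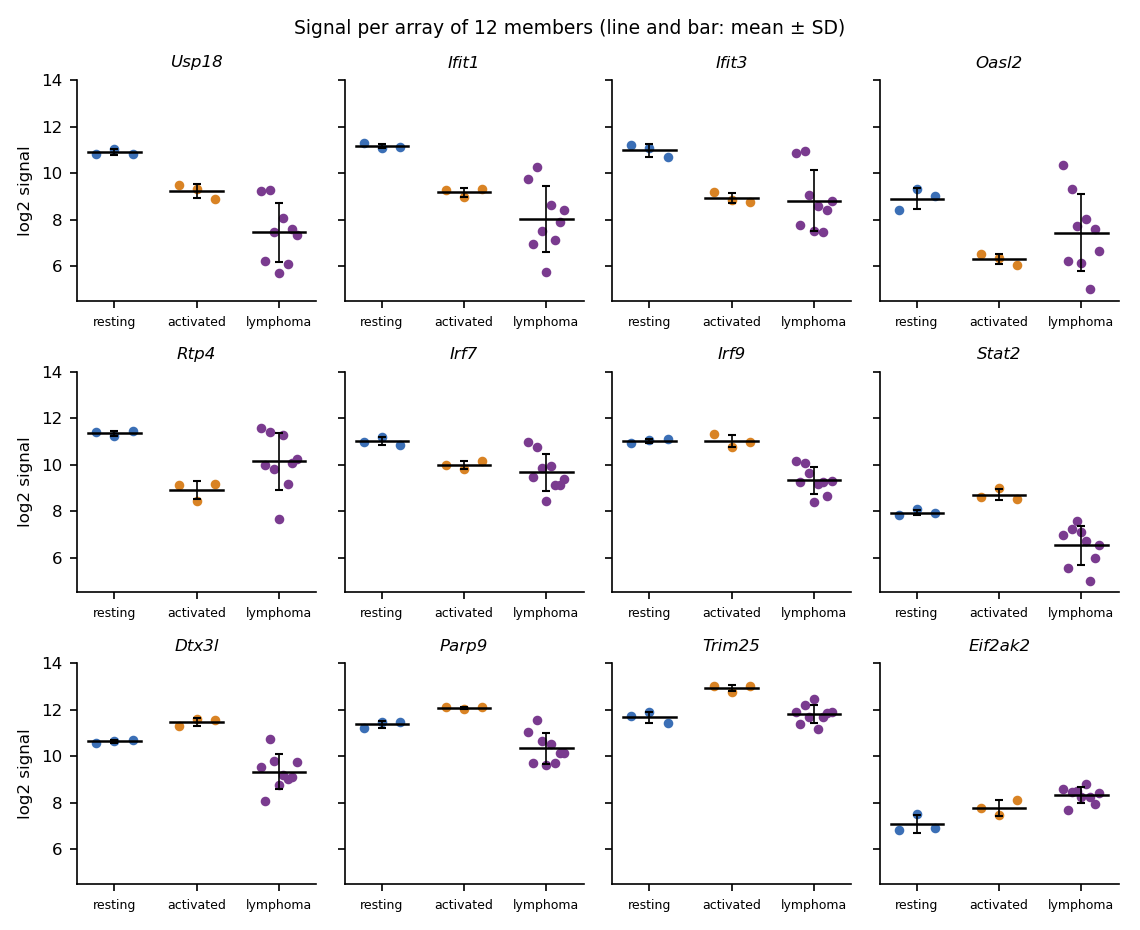
Log2 signal (vertical axis) per array of 12 interferon response genes in resting (3), activated (3) and lymphoma (9) samples, where points are arrays and the lines and bars are mean ± SD. Usp18, Ifit1, Ifit3, Oasl2, Rtp4 and Irf7 step down from resting to activated cells, while Irf9, Stat2, Dtx3l and Parp9 are lower mainly in the lymphomas.

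In the lymphomas compared with activated T cells, 10 of the 33 genes were called and all 10 were lower, where 15.3% of all genes were called. Lower calls made up 30.3% of the interferon response genes and 8.28% of all genes, and higher calls 7.04% of all genes. These were mainly transcription factors and signalling regulators: Stat2, Irf9 and Irf1 of the 4 factors, and Dtx3l, Parp9, Parp14 and Trim30a, which are all 4 regulators. Of the 20 effectors, Zbp1 and Samd9l fell, and Trim25 was the remaining gene. The median change was -0.81, against -0.08 over all genes. All lymphomas lay below all activated arrays for 12 genes (12.4% of all genes) and above them for none (9.78% of all genes). The count was 5, 4 and 6 without activated 1, 2 and 3, where 7.70%, 7.80% and 7.78% of all genes were called. With each array centred on its median, 5 genes were lower and 2 higher, and 1519 of all genes were called higher and 455 lower, against 838 and 986 with the scaling as deposited.

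Stat2 measured 7.82, 8.07 and 7.93 at rest, 8.58, 8.97 and 8.53 after activation and 5.00 to 7.59 with a median of 6.70 in the lymphomas. The lymphomas lay below all normal arrays, with mPTCL 7 the lowest. Against activated cells the change was -2.17 ± 0.49 (SE; adjusted p = 0.00928), 4.51-fold lower by limma, and against resting cells -1.41 ± 0.49, which did not pass (adjusted p = 0.0633). Without activated 2 the first of these had an adjusted p of 0.0565 by limma. Irf9 measured 11.31, 10.77 and 10.97 in activated cells, close to its resting values, and changed by -1.70 ± 0.35 (SE; adjusted p = 0.00534) in the lymphomas. Irf1, the interferon regulatory factor that also drives interferon gamma targets, measured 12.73, 13.06 and 12.77 at rest, 13.47, 13.37 and 13.33 after activation and 10.61 to 12.77 with a median of 11.87 in the lymphomas. All lymphomas lay below the activated arrays, and the highest of them reached the resting range. Its change against activated cells was -1.47 ± 0.34 (SE; adjusted p = 0.0107) by limma, with an adjusted p of 0.0507 to 0.0561 without activated 1 or activated 2. Irf7, the fourth factor, measured 8.45 to 10.98 with a median of 9.47 in the lymphomas, which differed by -1.33 ± 0.45 from resting cells (adjusted p = 0.0551 by limma) and by -0.30 ± 0.45 from activated cells.

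Of the 4 signalling regulators, Dtx3l, Parp9 and Parp14 had their highest group mean in activated cells, and Trim30a had near equal means at rest and after activation. Dtx3l measured 11.27, 11.59 and 11.56 there, above all lymphomas, and was lower in the lymphomas by 4.44-fold (-2.15 ± 0.42 (SE; adjusted p = 0.00436) by limma). Parp9, its partner, measured 11.20, 11.47 and 11.44 at rest, 12.11, 12.02 and 12.10 after activation and 9.63 to 11.57 with a median of 10.13 in the lymphomas. The lymphomas lay below all activated arrays, and mPTCL 3 exceeded the resting ones. Parp9 changed by -1.74 ± 0.37 (SE; adjusted p = 0.00676), Parp14 by -1.83 ± 0.45 (SE; adjusted p = 0.0133) and Trim30a by -1.77 ± 0.52 (SE; adjusted p = 0.0292) against activated cells. Zbp1, the sensor of Z-form nucleic acids that can start necroptosis, measured 10.64, 10.22 and 10.16 at rest, 10.87, 10.61 and 10.85 after activation and 7.68 to 10.34 with a median of 9.13 in the lymphomas, and changed by -1.59 ± 0.41 (SE; adjusted p = 0.0158). Samd9l measured 11.69, 11.77 and 11.58 in activated cells and changed by -1.52 ± 0.41 (SE; adjusted p = 0.0205). Trim25 measured 11.16 to 12.46 with a median of 11.84 in the lymphomas, below all activated arrays, and changed by -1.12 ± 0.24 (SE; adjusted p = 0.00654), so that it lay near its resting level, a difference of 0.12 ± 0.25. Without any 1 activated array the calls of Parp14, Trim30a, Zbp1 and Samd9l were lost, at adjusted p of 0.0532 to 0.112 by limma. Those of Dtx3l and Irf9 held in every alternative setting in which they were tested (28 for Dtx3l and 27 for Irf9).

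Of the 12 genes lower on activation, Ifit1, Ifit3 and Usp18 were also called lower in the lymphomas than in resting cells, and none was called lower in the lymphomas than in activated cells. Irf9, Trim30a, Parp14, Dtx3l and Samd9l were called lower in the lymphomas against both normal states. Stat2, Irf1, Zbp1, Parp9 and Trim25 were called lower in the lymphomas against activated cells alone. The changes of these genes against resting cells had limma adjusted p of 0.0633, 0.0793, 0.0677, 0.0715 and 0.761 in that order. For Zbp1 this rested on the probe set used. A second one differed by -2.20 from resting cells (adjusted p = 0.00337) and the mean of both by -1.68 (adjusted p = 0.0103, limma). Whether the groups of genes differ in their response was not tested.

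**Figure D4:**
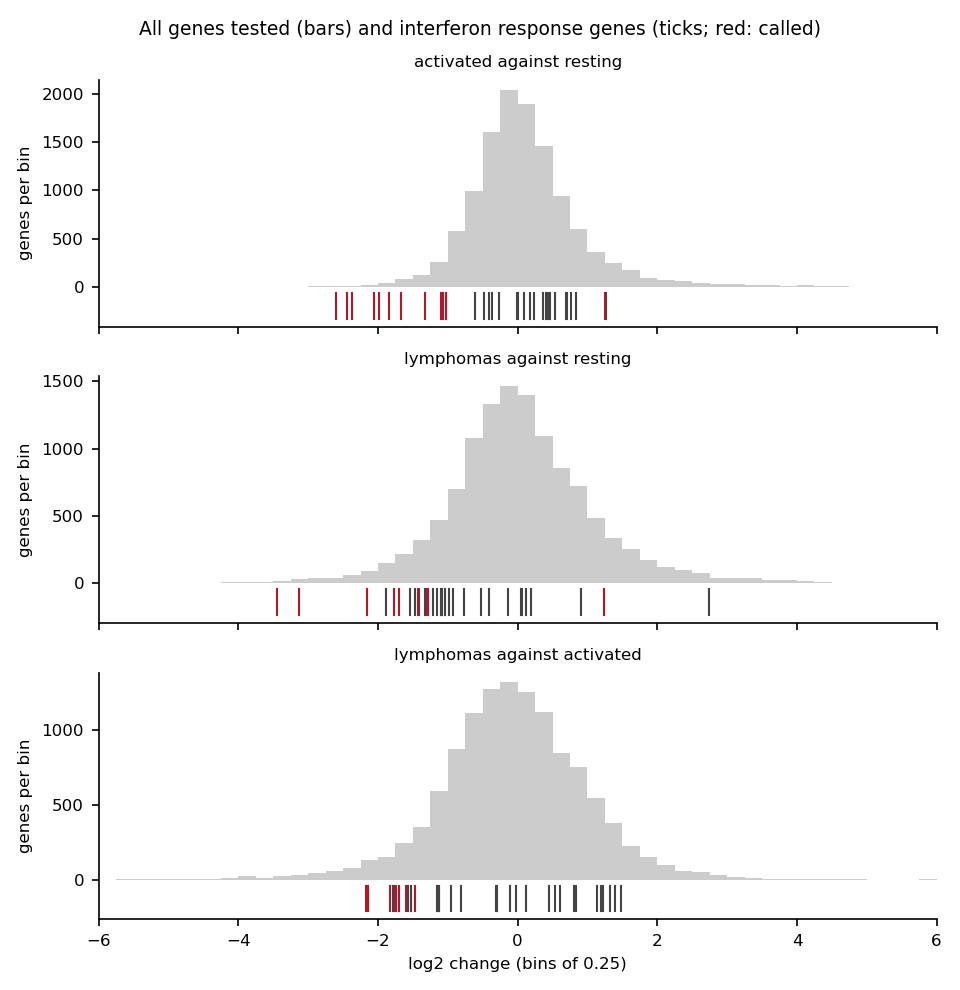
Distribution of log2 changes over the 11902 genes tested (grey bars, genes per bin of 0.25) with 1 tick for each of the 33 interferon response genes (red where called) in the 3 comparisons. The ticks centre at -0.27, -1.10 and -0.81 from top to bottom, and the bars near 0.

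The 10 genes called in no comparison were Ifit2, Mx1, Oas3, Rsad2, Ddx58, Dhx58, Bst2, Xaf1, Cmpk2 and Ifitm3. Ddx58, which encodes the sensor RIG-I, differed by -0.95 ± 0.28 (SE; adjusted p = 0.0314) between lymphomas and activated cells, past the adjusted p of the limma test and under 2-fold. Mx1, a dynamin-like GTPase, measured 8.15, 8.83 and 8.89 at rest and 7.61 to 9.73 with a median of 8.79 in the lymphomas. C57BL/6 mice are known to carry a defective Mx1 gene, whose transcript gives no working protein. Rsad2, which encodes viperin, measured 9.77, 10.12 and 8.91 at rest and 8.90 to 12.14 with a median of 10.30 in the lymphomas, a difference of 0.90 ± 0.59 (adjusted p = 0.312 by limma). Its other probe sets differed by 0.25 and -0.65, so the direction depends on the probe set. Bst2 (tetherin) ranged from 8.01 to 10.93 with a median of 8.85 over the lymphomas, Cmpk2 from 7.43 to 11.10 with a median of 8.55, Dhx58 (the sensor LGP2) from 5.00 to 9.02 with a median of 7.21, Oas3 from 5.00 to 8.31 with a median of 7.27 and Ifit2 from 7.43 to 11.08 with a median of 9.92, and each of these ranges overlapped the resting arrays.

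The lymphomas differed among themselves far more than the normal samples. Their mean over the 34 genes was 9.22 ± 0.61 (SD, n = 9), against 10.11 ± 0.12 in resting and 9.68 ± 0.01 in activated arrays (SD, n = 3 each). The mean was 10.21 in mPTCL 1, 10.09 in mPTCL 3, between 9.00 and 9.30 in mPTCL 4, 6, 8 and 9, 8.72 in mPTCL 2, 8.71 in mPTCL 7 and 8.38 in mPTCL 5. Counting for each gene the lymphoma with the highest value, mPTCL 3 held it for 14 genes and mPTCL 1 for 10. The lowest value was in mPTCL 5 for 14 genes, in mPTCL 7 for 8 and in mPTCL 2 for 5. Among all arrays, mPTCL 5 also had the lowest mean of T cell markers, 8.78, and the highest actin 3′ to 5′ ratio, 2.65. The part of these in its low values was not tested. Within mPTCL 1 and mPTCL 3, Oas1a was 11.10 and 11.20, above all resting arrays, and Rsad2 was 11.55 and 12.14, likewise above them. Irf9, in contrast, was 10.16 and 10.05, below all normal arrays. No gene had 1 lymphoma set apart from the other 8 by Dixon's test.

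Most of the genes varied together across the lymphomas. Over the 9 arrays, the median of the pairwise Pearson correlations among the 33 genes was 0.50, with quartiles of 0.19 and 0.68, and among all genes tested it was 0.0055. These are descriptions over arrays that share their scaling and their mixture of cells. The genes closest to the mean of the others were Ifit3 at 0.976, Usp18 at 0.965, Ifit1 at 0.947 and Irf7 at 0.946. Trim25 at 0.04, Ifitm3 at 0.02 and Xaf1 at -0.19 were the least like it.

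The widest ranges over the lymphomas belonged to Ifitm3, Xaf1, Oasl2, Ifit1, Isg20 and Oas2. Ifitm3 measured 7.35 to 13.46 with a median of 10.12 in the lymphomas. It was highest in mPTCL 1 and mPTCL 4 and differed by 2.75 ± 1.00 from resting cells, which did not pass (adjusted p = 0.0722 by limma). Xaf1, a proapoptotic partner of XIAP, measured 12.33, 12.31 and 12.28 at rest and 11.94, 11.69 and 12.20 after activation. In the lymphomas it was 7.85, 6.75 and 8.54 in mPTCL 3, 4 and 5 and 11.28 to 12.36 in the other 6. The low values were in the 3 lymphomas with the lowest Cd3e. A second probe set of Xaf1 gave 10.71, 9.69 and 8.19 in those lymphomas and 8.86 to 10.19 in the other 6, so the separation was seen with 1 probe set of 2. Oasl2 spanned 5.00 to 10.35 with a median of 7.58, from the floor in mPTCL 7 to above the resting arrays in mPTCL 1, and Oas2 spanned 5.00 to 9.20 with a median of 6.35, at the floor in mPTCL 7 and mPTCL 9. Isg20 spanned 6.89 to 11.26 with a median of 9.71, low in mPTCL 2 and high in mPTCL 3.

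Markers of other cells varied over the lymphomas as well. The mean of the neutrophil markers was 11.16 in mPTCL 1, 10.01 in mPTCL 2, 11.61 in mPTCL 4, 12.17 in mPTCL 5, 10.88 in mPTCL 8 and 8.32 in mPTCL 9, against 5.59 to 7.32 in mPTCL 3, 6 and 7 and 5.63 to 5.97 in the normal arrays. The summed signal of the 10 neutrophil markers measured was 519.7 to 114867 in the lymphomas and 579.9 to 807 in the normal arrays, where Lcn2 and Cxcr2 stayed at the floor. B cell markers were highest in mPTCL 1 at 10.59 and mPTCL 5 at 11.37, which had the highest and the lowest mean of the interferon response genes. The lymphoma closest to mPTCL 1 in that mean, mPTCL 3, had neutrophil and B cell means of 5.59 and 6.64. Plasmacytoid dendritic cell markers averaged 6.35 to 9.32 in the lymphomas and 7.69 to 7.86 in the resting arrays. They were highest in mPTCL 1, and averaged 7.86 in mPTCL 3, 8.55 in mPTCL 5 and 6.35 in mPTCL 7. The part of any of these cells in the level of the interferon response genes was not tested. Without the 6 lymphomas rich in neutrophil markers, 3 lymphomas remained, and 4 of the 33 genes were called against resting cells (1 higher and 3 lower). Of all genes 12.2% were called in that fit, a share near that of these genes. Against activated cells 10 were called in that set, 9 lower and 1 higher, where 15.9% of all genes were called. Parp9 lost its call (adjusted p = 0.0686 by limma) and Oas1a was higher at 1.72 (adjusted p = 0.0172). The median change against activated cells was -0.35 in that set. Without mPTCL 3, 4 and 5, which have low Cd3e, 15 genes were called against resting and 14 against activated cells. The share of all genes called rose as well, from 13.9% to 21.8% against resting and from 15.3% to 24.8% against activated cells. The median change against activated cells was -0.32. The actin 3′ to 5′ ratio was 1.93 ± 0.40 in the lymphomas and that of Gapdh was 1.85 ± 0.30 (SD, n = 9), and the labels give an amplification kit for the normal samples alone and a software version for the lymphomas alone, so a difference in these and the group cannot be told apart. The identifiers of the normal samples and of the lymphomas form separate runs. A difference between these runs and the group cannot be told apart either, in both comparisons of the lymphomas.

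**Figure D5:**
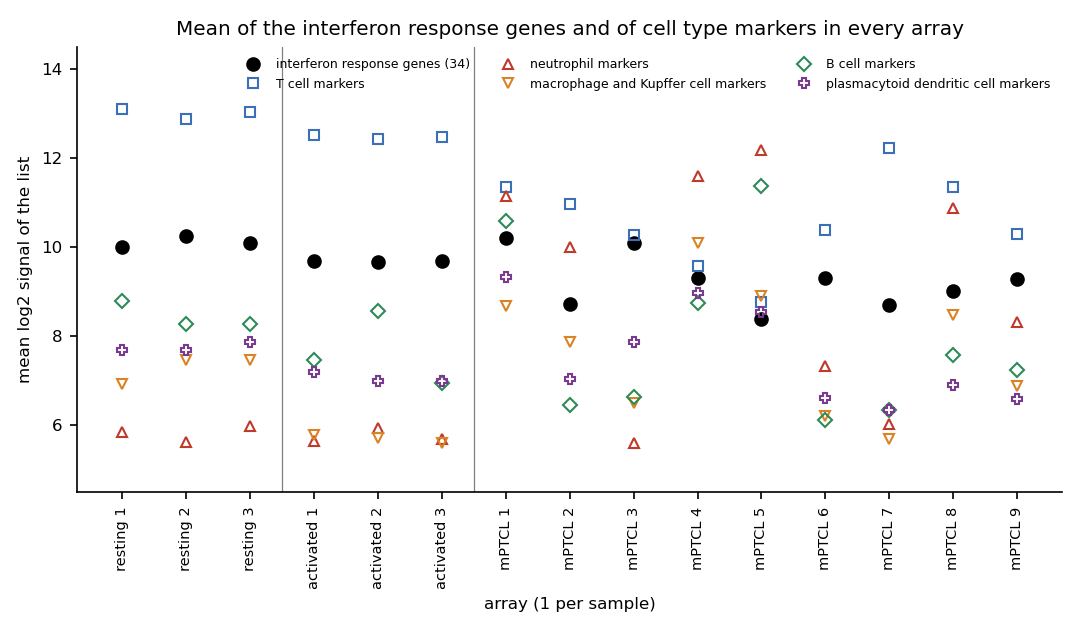
Mean log2 signal (vertical axis) of the 34 interferon response genes and of T cell, neutrophil, macrophage and Kupffer cell, B cell and plasmacytoid dendritic cell markers in every array (horizontal axis). The black points are level within the normal groups and spread from 8.38 in mPTCL 5 to 10.21 in mPTCL 1, while neutrophil markers reach 12.17 in mPTCL 5.

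The upstream part of the pathway was examined with lists of genes that are not among the 36. Beside their counts stand the shares of all genes called, which were 8.45% higher and 4.23% lower on activation, 7.03% and 6.84% in the lymphomas against resting cells, and 7.04% and 8.28% against activated cells, so a count of 1 to 3 in a list is in several cases near the share of all genes. Of 20 interferon ligand genes listed, 10 had a probe set, 3 passed the filter and none was called in any comparison. Ifnb1, the first type I interferon made after sensing, measured 5.94, 5.85 and 6.31 at rest, 6.76, 5.90 and 5.75 after activation and 5.00 to 6.55 with a median of 5.76 in the lymphomas. Ifng, the type II interferon, measured 8.45, 8.87 and 8.61 at rest and 7.17, 8.14 and 8.77 after activation. In mPTCL 1 to 9 Ifng was, in order, 11.44, 13.32, 7.46, 8.98, 6.58, 14.37, 13.35, 11.34 and 5.78. Of the pair of lymphomas with the highest mean of interferon response genes, mPTCL 1 lay above all normal arrays in Ifng and mPTCL 3 within their range, and a relation between them was not tested.

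Of 9 receptor and JAK-STAT genes tested, 2 rose on activation and none fell, 1 fell in the lymphomas against resting cells, and 5 fell against activated cells. Ifnar1 measured 9.11, 9.13 and 9.20 at rest, 10.57, 10.35 and 10.67 after activation and 7.37 to 9.65 with a median of 8.07 in the lymphomas. It rose by 1.38 ± 0.12 (SE; adjusted p = 0.000591) on activation and changed by -2.17 ± 0.43 (SE; adjusted p = 0.00454) in the lymphomas against activated cells by limma. Jak1 measured 13.87, 13.79 and 13.68 at rest, 14.03, 13.76 and 13.80 after activation and 11.78 to 12.98 with a median of 12.31 in the lymphomas, which lay below all normal arrays. It changed by -1.37 ± 0.26 (SE; adjusted p = 0.0038) against resting and -1.45 ± 0.26 (SE; adjusted p = 0.00285) against activated cells by limma. Ifngr1, a chain of the interferon gamma receptor, changed by 1.03 ± 0.15 on activation and -1.56 ± 0.50 in the lymphomas against activated cells. The other lower genes of the 5, Stat3 at -1.20 ± 0.29 and Il10rb at -1.17 ± 0.37, were chosen for naming once their values were known. Ifnar2 and Tyk2 passed in no comparison and measured 9.82 to 12.55 with a median of 10.71 and 8.88 to 11.11 with a median of 9.99 in the lymphomas. The calls of Ifngr1, Stat3 and Il10rb against activated cells were lost without any 1 activated array, and those of Ifngr1 and Il10rb also without single lymphomas (mPTCL 2, 7 and 8 for Ifngr1, and mPTCL 2, 3, 7 and 9 for Il10rb), at limma adjusted p of 0.0513 to 0.145. On activation the change of Ifngr1 fell under 2-fold without resting 1, resting 2 or activated 3, at 0.93 to 0.99.

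Of 15 genes of nucleic acid sensing and interferon induction, 2 rose and 1 fell on activation, 2 fell in the lymphomas against resting cells, and 1 rose and 2 fell against activated cells. Irf3, the factor that first induces Ifnb1, measured 12.50, 12.36 and 12.63 at rest, 11.55, 11.30 and 11.22 after activation and 9.83 to 11.53 with a median of 11.10 in the lymphomas. It fell on activation (-1.14 ± 0.12 (SE; adjusted p = 0.00118)) and in the lymphomas against rest (-1.53 ± 0.29 (SE; adjusted p = 0.00336)) by limma. Irf8 and Irf5, a pair of factors best known from myeloid cells, changed by 2.12 ± 0.13 and 1.30 ± 0.31 on activation. Ikbke, which encodes a kinase that activates Irf3 and Irf7, was lower in the lymphomas by 9.48-fold against resting cells (-3.25 ± 0.45 (SE; adjusted p = 0.000545)) and 6.38-fold against activated cells (-2.67 ± 0.45 (SE; adjusted p = 0.00216)) by limma. Against activated cells, Cgas, the DNA sensor, changed by 1.56 ± 0.45 and Nlrc5, an activator of MHC class I genes, by -1.17 ± 0.33. The calls of Cgas and Nlrc5 were lost without any 1 activated array, at adjusted p of 0.0642 to 0.141, and that of Irf5 without resting 1, activated 2 or activated 3, at 0.0511 to 0.0645 by limma.

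Of 10 negative regulators, 2 rose and 1 fell on activation, 1 rose in the lymphomas against resting cells, and 1 rose and 4 fell against activated cells. Socs1, the feedback inhibitor of JAK kinases, measured 7.44, 7.23 and 7.21 at rest, 8.45, 8.43 and 8.14 after activation and 5.15 to 8.50 with a median of 5.86 in the lymphomas. It changed by 1.05 ± 0.20 (SE; adjusted p = 0.00918) on activation and by -1.99 ± 0.64 (SE; adjusted p = 0.0432) in the lymphomas against activated cells by limma. Samhd1, a nucleotide triphosphohydrolase, changed by 1.50 ± 0.09 on activation and -2.45 ± 0.49 in the lymphomas against activated cells, and Ptpn6, which encodes the phosphatase SHP-1, by -1.24 ± 0.10 on activation. Rnaseh2b, a subunit of RNase H2, was higher in the lymphomas by 1.57 ± 0.33 against resting and 1.39 ± 0.34 against activated cells. Rnf125, a ubiquitin ligase for RIG-I, changed by -1.66 ± 0.36 against activated cells, and Adar, the RNA-editing enzyme, by -1.21 ± 0.30, named after its value was seen. The call of Socs1 in the lymphomas was lost without any 1 activated array or any of 5 lymphomas (mPTCL 1, 2, 5, 8 and 9), at adjusted p of 0.0535 to 0.143 by limma. Its change on activation was 0.99, under 2-fold, without activated 1. Those of Rnaseh2b (without activated 1 or 2), Adar (without activated 1 or 3) and Rnf125 (without activated 3) against activated cells were also lost, at 0.0502 to 0.0766.

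Of 30 other interferon-stimulated genes tested, 3 rose and 5 fell on activation, 1 rose and 13 fell in the lymphomas against resting cells, and 1 rose and 7 fell against activated cells. On activation Parp12, a mono-ADP-ribosyltransferase, changed by -2.94 ± 0.26, Ddx60, a helicase, by -1.72 ± 0.18, Slfn5 of the Schlafen family by -1.69 ± 0.24 and Ifitm1, a relative of Ifitm3, by 2.93 ± 0.32. The remaining calls on activation, Ifitm2 and Pml higher and Herc6 and Tdrd7 lower, at 1.47 ± 0.35, 1.11 ± 0.17, -1.05 ± 0.17 and -1.29 ± 0.33, were chosen for naming once their values were known. These 4 calls were lost without resting 1 or 2 (Ifitm2), without resting 3 (Pml), without resting 3 or activated 2 (Herc6) and without any 1 array but resting 3 (Tdrd7). In the lymphomas Slfn1 changed by -4.71 ± 0.88 against resting and -4.46 ± 0.89 against activated cells, with 1 lymphoma at the floor. Ifi27l2a, a gene strongly induced by interferon, changed by -3.77 ± 0.86 and -3.44 ± 0.86 in the same comparisons. Slfn5 changed by -2.65 ± 0.69 against resting cells with 2 lymphomas at the floor, and Ifitm2 by 4.04 ± 1.10 in the other direction. Against activated cells, Pml, the scaffold of nuclear bodies, changed by -2.48 ± 0.52 and Parp12 by 2.71 ± 0.60. The calls of Slfn5 and Ifitm2 against rest were lost without any 1 resting array, at 0.0730 to 0.0990, those of Ifi27l2a without resting 1, resting 3 or any activated array, at 0.0544 to 0.0669, and that of Parp12 against activated cells without activated 1, at 0.0515 (limma adjusted p).

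Interferon gamma targets, which respond mainly to the type II interferon, were the last list. Of 21 tested, 4 rose and none fell on activation, 1 fell in the lymphomas against resting cells and 6 fell against activated cells. On activation the immunity-related GTPases Iigp1 and Igtp changed by 2.32 ± 0.19 and 1.09 ± 0.11, and the guanylate-binding proteins Gbp6 and Gbp3 by 1.39 ± 0.23 and 1.21 ± 0.24. The value of Igtp here was picked after it was seen. In the lymphomas against activated cells Iigp1 changed by -4.12 ± 1.01, Irgm2 by -2.87 ± 0.80 and Igtp by -2.77 ± 0.72, and against resting cells Ifi47 changed by -1.75 ± 0.56. The calls of Iigp1, Irgm2 and Igtp in the lymphomas were lost without any 1 activated array, at adjusted p of 0.0590 to 0.0949, and that of Ifi47 without any 1 resting array or any of 5 lymphomas (mPTCL 1, 2, 4, 6 and 8), at 0.0525 to 0.156 by limma. The change of Gbp3 on activation was 0.95, under 2-fold, without resting 3.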

How the data were processed

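Gene expression was measured on Affymetrix one-colour arrays in 9 lymphomas, 3 resting and 3 activated T cell samples, grouped by the labels. Each value is a linear intensity (MAS5 signal) that the authors made with Affymetrix Expression Console (version 1.1 named for the lymphomas alone), per the submitters' processing notes. They were scaled to the same trimmed mean in every array, and no values per probe or detection calls were used here. Of 45101 probe sets, 34958 list 1 symbol, 932 several and 9211 none. Those with 1 symbol, updated through RefSeq gene identifiers (GRCm38.p6), were used without controls. Values below 32 were set to 32 and log2 was taken. A gene was tested when 3 or more arrays reached 100, on the probe set with the highest mean.

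Tests used limma 3.58.1 in R 4.3.3 (lmFit, eBayes with a trend) on the arrays of the 2 groups compared, with Benjamini-Hochberg adjustment over all genes tested. The script was tested on simulated data. The number of arrays limits the precision. The genes, the pathway and marker lists and the alternatives were chosen with earlier results of these data known. All 36 genes are accounted for by name. Full values are given for those called in a comparison, for the 4 transcription factors and for the 6 with the widest lymphoma range. Of each pathway list, at most 4 called genes per comparison with the largest change are named, at most 3 per direction, beside Ifnar1, Ifnar2, Jak1, Tyk2, Irf3, Ifng, Ifnb1, Socs1 and Cd3e, with exceptions marked. The deleted gene is not analysed here.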

Additional observations from a re-analysis of the deposited data

How the results depend on the processing

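On activation, 10 to 13 of the interferon response genes and 10.6% to 12.6% of all genes were called with 1 array left out. The median change of the interferon response genes was then -0.30 to -0.18. The count was 1 when all 15 arrays shared 1 fit (3.34% of all genes called). The median was -0.55, against -0.25 over all genes, with arrays centred on their median. Resting and activated arrays that share a replicate number did not deviate together (correlations of -0.011, 0.049 and -0.007). With 3 arrays per group this cannot show whether the numbers pair samples, and the labels do not say. With the replicate number as a block 14 genes were called (2 higher, 12 lower), where 12% of all genes were called, and the median stayed at -0.27. In the lymphomas against resting cells the count was 9, and 13.9% of all genes were called. It became 4 without the filter (7.51% of all genes), 5 with centring (11.7%) and 5 without the trend (13.6%). It was 14 with all arrays in 1 fit (16.8% of all genes) and 19 with array weights per group (22.8%). It was 4 without the neutrophil-rich lymphomas (12.2%) and 15 without those low in Cd3e (21.8%). With 1 array left out it was 2 to 12, with 6.54% to 15.5% of all genes called and a median of -1.20 to -0.95. The share of all genes thus moved as well. No paired analysis was possible for the lymphomas because their numbers only name them. Against activated cells the count was 10, and 15.3% of all genes were called. It became 6 without probe sets named as matching several transcripts (24 genes tested, 15.4% of all genes called). It was 17 with array weights per group (4 higher, 13 lower, 24.8% of all genes). With 1 array left out it was 4 to 12, with 7.7% to 18.2% of all genes called and a median of -0.94 to -0.52. The median of -0.81 against activated cells was -0.43 with centring (0.31 over all genes), -0.35 without the neutrophil-rich and -0.32 without the Cd3e-low lymphomas. Other alternatives moved these counts by less than 1.5 times.

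Over single interferon response genes called in a comparison, the call was kept in 670 cases and lost in 112 of the alternatives, with no change of direction. A further 81 cases gained a call. Genes without a call were followed no further, and some turn with the probe set: Cmpk2 differed by 0.06 between lymphomas and resting cells on the probe set used and by -1.03 on its other one. The lymphomas, with 9 uneven arrays against 3, gave wide errors, and a gene without a call is not shown to be equal. Arrays at the floor of 32 limit Mx2, Oas2, Oas3, Oasl2 and Dhx58. Probe sets of Xaf1, Rsad2, Cmpk2, Zbp1 and Eif2ak2 gave unlike changes in the lymphomas.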
